A study of Homo sapiens with 12 samples.

Results

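The genes described here are 48 genes of the MYC network and of ribosome biogenesis. They were taken as a named list from the 63677 genes of the count table, with earlier results of these data known. They were not picked by a cutoff on any measured value. They comprise 7 genes of the MYC-MAX network, 5 of RNA polymerase I transcription, 6 of small nucleolar ribonucleoproteins (snoRNPs), 9 of small subunit assembly, 12 of large subunit assembly, 7 coding for nucleolar chaperones and other nucleolar proteins, and 2 of polyamine synthesis. RNA-seq was performed on 3 established mantle cell lymphoma (MCL) cell lines, JEKO1, JVM2 and MAVER1, obtained from a cell bank. Each line was cultured for 48 h as a control, with ironomycin, with ibrutinib or with both drugs. Ironomycin sequesters iron in lysosomes, and ibrutinib blocks BTK, a kinase of B-cell receptor signaling. JEKO1 received 50 nM ironomycin and 0.5 µM ibrutinib, JVM2 250 nM and 1.5 µM, and MAVER1 250 nM and 6.25 µM, and the combination used the same doses. The lines were the replicates of a treatment (n = 3), with 1 library per line and treatment, so that dose and line varied together and no treatment was repeated within a line. Of the 48 genes, 47 passed the filter on low counts, as did 18674 genes in all, and BOP1 was listed at 0 reads in every library under its identifier here.

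MYC is a transcription factor that binds E-box sequences as a dimer with MAX. MXD and MNT proteins compete for MAX and repress E-box genes, while many genes that MYC activates code for the machinery that transcribes, modifies and assembles ribosomal RNA in the nucleolus. Proliferating lymphoma cells depend on this machinery for protein synthesis and growth, and polyamine synthesis is another pathway under MYC control.

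Library totals ran from 35448523 to 38630809 reads, the lowest being that of JEKO1 with both drugs. Reads from mitochondrially encoded genes made up 1.92% to 2.05% of the control libraries and 0.883% to 1.89% of those with both drugs, and the 48 genes together held 0.868% to 1.25% and 0.811% to 0.970%. All 6 B-cell markers examined were expressed, with a summed level of 1812 to 1964 CPM (counts scaled to library size) in control libraries and 1305 to 1859 with both drugs. Of the MCL markers, CCND1 was expressed in each line, SOX11 was listed at 0 in every JVM2 library, and CD5 was at no more than 0.0549 CPM in JVM2. The T-cell markers that passed the filter summed to at most 3.20 CPM and the myeloid markers to at most 5.07 CPM in any library, and FCGR3A and PECAM1 were listed at 0. Epithelial and stromal markers summed to 4.35 to 30.2 CPM in control libraries and 6.13 to 48.3 CPM with both drugs. The part of these differences in the results was not tested, and in bulk RNA fewer cells of a kind and less RNA per cell cannot be told apart.

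The promoters of the 48 genes were searched for the E-box bound by MYC-MAX and by its antagonists, CACGTG, which reads the same on both strands. RefSeq promoter windows (GRCh38.p14, 250 bases before to 50 bases after a start site) were found for 41 of the 48 genes. An E-box was present in 21 of these 41 genes (51.2%), against 8.77% of all 27305 genes of the promoter table and 12.1% of the 12095 tested genes found there. In 17 of the 22 windows of these genes that held an E-box, it began within 50 bases of the start site (77.3%), against 38.9% of all windows with the motif. SRM, which fell with both drugs, had its E-box at base -199 from the start site, and MXD1, which rose, had no match. The stretches below are picked examples, each 100 bases with the E-box in capitals. They show the motif beside the start site in genes of several roles that fell with both drugs. They also show it far upstream in an antagonist that rose, and a gene with a large fall and no match.
ODC1: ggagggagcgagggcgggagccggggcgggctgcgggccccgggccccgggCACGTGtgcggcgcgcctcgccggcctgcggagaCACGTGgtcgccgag
RRP9: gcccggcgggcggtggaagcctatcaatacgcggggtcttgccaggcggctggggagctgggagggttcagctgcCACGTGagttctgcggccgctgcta
UTP4: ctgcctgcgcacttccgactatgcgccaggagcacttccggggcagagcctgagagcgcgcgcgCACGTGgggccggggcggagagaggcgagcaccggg
DDX21: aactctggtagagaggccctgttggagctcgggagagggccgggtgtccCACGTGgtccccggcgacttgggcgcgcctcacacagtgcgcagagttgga
MXD4: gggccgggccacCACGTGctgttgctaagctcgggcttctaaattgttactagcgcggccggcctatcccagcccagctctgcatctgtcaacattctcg
NPM3: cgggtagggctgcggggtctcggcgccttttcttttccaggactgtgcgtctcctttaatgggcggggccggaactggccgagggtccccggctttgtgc
The ODC1 stretch (chr2:10447993-10448092, minus strand) held 2 E-boxes and is from the ODC1 window with the most. The stretches of RRP9 (chr3:51941885-51941984, minus strand), UTP4 (chr16:69132569-69132668, plus strand) and DDX21 (chr10:68956567-68956666, plus strand) also run from 80 bases before to 19 bases after the start base. The MXD4 stretch (chr4:2262260-2262359, minus strand) begins 250 bases before it. No CACGTG was found in the whole NPM3 window, of which chr10:101783427-101783526 (minus strand) is shown. Outside the MYC-MAX network, the median log2 fold change with both drugs against control was -0.50 for the 19 tested genes with an E-box and -0.42 for the 16 without one. A match is a description of these letters, and no binding was measured.

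MYC mRNA was not called with any treatment. Of its antagonists, MXD1, MXD4 and MNT rose with both drugs, and MXD3 and MXI1 were not called in that comparison. MYC was at 787 CPM in the JEKO1 control and 924 CPM with both drugs, at 238 and 298 CPM in JVM2, and at 613 and 584 CPM in MAVER1 (CPM scaled by TMM, a correction for library composition). With ironomycin alone it was at 848, 298 and 583 CPM in JEKO1, JVM2 and MAVER1, and with ibrutinib alone at 803, 255 and 621 CPM. The spread between lines exceeded any change with treatment, and the treatments overlapped. The log2 fold change with both drugs against control was 0.16 ± 0.10 (standard error), with a 95% confidence interval of -0.06 to 0.38 and an adjusted p of 0.240. Adjusted p-values are by Benjamini-Hochberg over all 18674 genes from edgeR's quasi-likelihood test, with treatment and line as terms, and a gene was called when it was under 0.05. MYC was not called in any comparison between treatments or within a line. With library totals in place of TMM its log2 fold change was 0.29, with an edgeR adjusted p of 0.0562 after Benjamini-Hochberg adjustment.

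MXD1, an antagonist that dimerizes with MAX, was scarce in every library. It was at 4.42 CPM in the JEKO1 control and 10.1 CPM with both drugs, at 11.8 and 13.5 CPM in JVM2, and at 3.45 and 16.4 CPM in MAVER1. MXD1 was higher with both drugs in each line, although the JVM2 control lay above JEKO1 with both drugs. The log2 fold change was 1.18 ± 0.30 (edgeR, Benjamini-Hochberg adjusted p = 0.0175). MXD4, another antagonist of the same family, was at 25.6 and 104 CPM in JEKO1, at 42.2 and 54.1 CPM in JVM2, and at 52.0 and 90.8 CPM in MAVER1, in control and with both drugs. The highest control value lay below the lowest value with both drugs. Its log2 fold change was 1.07 ± 0.28 (edgeR, Benjamini-Hochberg adjusted p = 0.0185). With ibrutinib alone MXD1 was at 3.70, 9.65 and 4.31 CPM and MXD4 at 27.6, 39.5 and 52.1 CPM in JEKO1, JVM2 and MAVER1, each close to the control of its own line. MNT, a broadly expressed antagonist, rose by 0.24 ± 0.08 on the log2 scale, from 18.2 to 37.6 CPM over the control libraries to 23.9 to 44.5 CPM with both drugs. None of the 3 was called without JEKO1, without MAVER1 or without the JEKO1 library with both drugs, and MNT also lost its call without JVM2, with DESeq2 size factors in place of TMM and with no filter on low counts.

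The other 3 genes of the network were not called in the comparisons over all lines. MAX, the shared partner, had 74.9 to 94.4 CPM in control libraries and 80.3 to 90.7 CPM with both drugs. MXD3 went in different directions by line, from 24.8 to 25.0 CPM in JEKO1, from 25.5 to 17.6 CPM in JVM2 and from 17.3 to 20.5 CPM in MAVER1. MXI1 was at 24.9 to 39.3 CPM in JEKO1 and MAVER1 and at no more than 0.999 CPM in JVM2, where the lowest library held 22 reads. The plot of levels by library sets MYC, MXD1 and MXD4 beside 3 genes that fell.

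**Figure D1:**
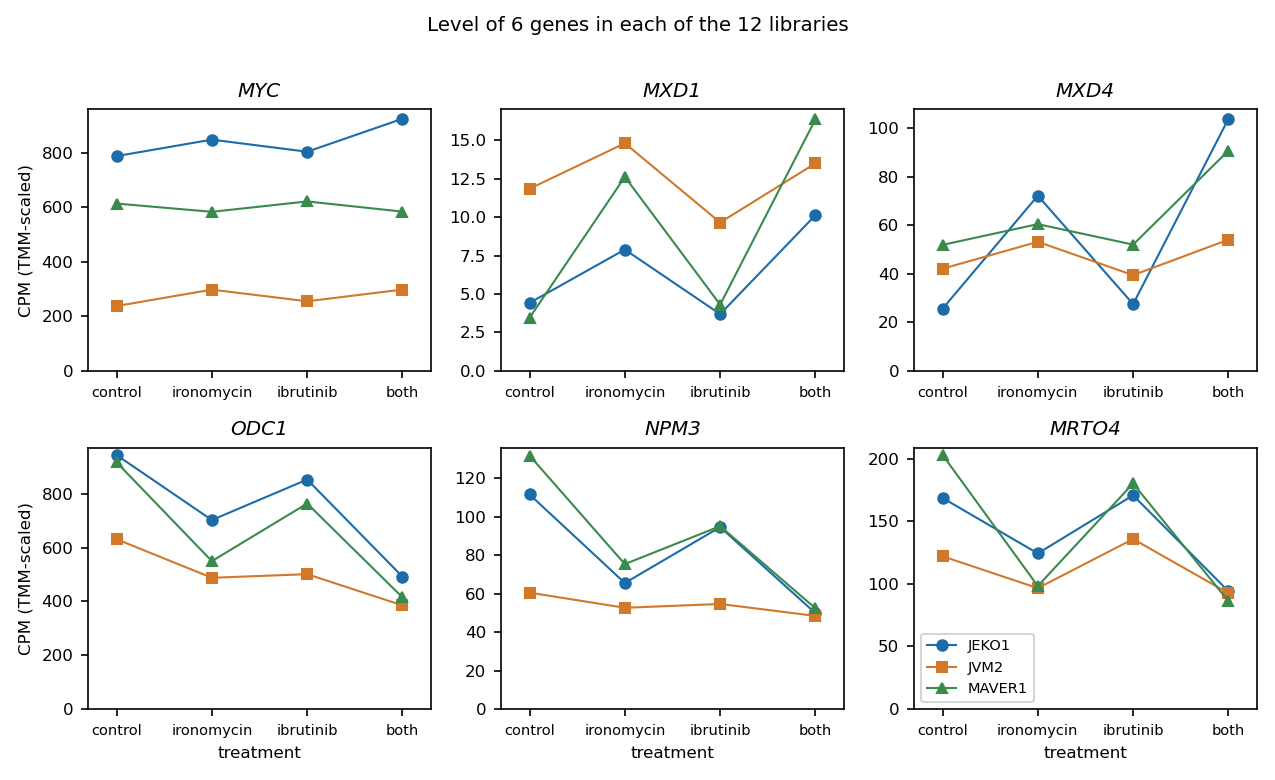
TMM-scaled CPM (vertical axes, from 0) of 6 genes under the 4 treatments (horizontal axes), with 1 point per library and a line joining the 4 libraries of a cell line. MYC separates by cell line, and with ironomycin it is higher in JEKO1 and JVM2 and lower in MAVER1. MXD1 and MXD4 are highest with both drugs in JEKO1 and MAVER1, and ODC1, NPM3 and MRTO4 are lowest with both drugs in every line.

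Most of the ribosome biogenesis genes were lower with both drugs. Of the 47 genes tested, 35 were called against control, where 28.2% of all genes tested were called. The 3 that rose were MXD1, MXD4 and MNT. The other 32 fell, all of them among the 40 genes outside the MYC-MAX network, where 14% of all genes tested were called lower. The median log2 fold change of these 40 genes was -0.49, against 0.05 for all genes tested, and 34 of the 40 had a lower level with both drugs in every line. These values are TMM-scaled. With library totals in place of TMM, 29.4% of all genes were called, 8.37% lower. As a share of library totals the 48 genes held 1.24% and 0.970% in JEKO1, 0.868% and 0.811% in JVM2 and 1.25% and 0.903% in MAVER1, in control and with both drugs. The calls of all genes, these among them, rested on both JEKO1 and MAVER1. Of the 47, 0 were called without JEKO1 or without MAVER1, where 0.207% and 0.117% of all genes were called. Without JVM2, 39 were called (33.9% of all genes called). Leaving out only the JEKO1 library with both drugs gave 18, all lower (11.9% of all genes called, 6.2% lower). With no term for the line or with only the 6 libraries compared 0 were called (0% and 0.031% of all genes called).

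In RNA polymerase I transcription, 3 of 5 genes fell. TCOF1 codes for treacle, a nucleolar cofactor of the polymerase, and its level was 254 and 155 CPM in JEKO1, 282 and 240 CPM in JVM2 and 304 and 202 CPM in MAVER1, in control and with both drugs. Each value with both drugs lay below every control, and the log2 fold change was -0.51 ± 0.10 (edgeR, Benjamini-Hochberg adjusted p = 0.00629). UBTF, which binds the ribosomal DNA promoter, fell by 0.32, and POLR1B, the second largest subunit of the enzyme, fell by 0.35 on the log2 scale. The largest subunit, POLR1A, was at 207 to 242 CPM in control libraries and 206 to 260 CPM with both drugs, with a log2 fold change of 0.07 ± 0.10 and a 95% confidence interval of -0.15 to 0.29. POLR1C, shared with RNA polymerase III, was lower with both drugs in JEKO1 and MAVER1 and not in JVM2, where it was at 26.0 CPM in control and 28.8 CPM with both drugs.

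The snoRNP proteins guide and carry out modification of ribosomal RNA, and 5 of 6 fell. NHP2, a component of the H/ACA particles that make pseudouridine, was at 121 and 62.6 CPM in JEKO1, 62.4 and 50.1 CPM in JVM2 and 111 and 48.4 CPM in MAVER1, in control and with both drugs. Its level with both drugs in JEKO1 was just above the JVM2 control, and the log2 fold change was -0.82 ± 0.15 (edgeR, Benjamini-Hochberg adjusted p = 0.00483). NHP2 shares 27.4% of its exon bases with RMND5B on the other strand, which had a median of 2102 reads against 2462 for NHP2, and the strand setting of the counting is not given in the sources used here. GAR1 and DKC1, the latter being the pseudouridine synthase of the same particles, fell by 0.44 and 0.41. FBL, the methyltransferase of the box C/D particles, and their core protein NOP56 fell by 0.45 and 0.42. NOP58, the partner of NOP56, was not called, at -0.18 ± 0.07 with an edgeR adjusted p of 0.0786 by Benjamini-Hochberg.

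In small subunit assembly, 8 of 9 genes fell. BYSL, needed for maturation of the small subunit, was at 150 and 90.2 CPM in JEKO1, 57.9 and 46.2 CPM in JVM2 and 120 and 52.4 CPM in MAVER1, in control and with both drugs. It was lower in each line, while the groups overlapped because JVM2 started from a lower level, and the log2 fold change was -0.76 ± 0.14 (edgeR, Benjamini-Hochberg adjusted p = 0.00519). RRP9, a protein of the U3 snoRNP, was at 72.4 and 42.9 CPM in JEKO1, 66.5 and 61.3 CPM in JVM2 and 87.9 and 40.1 CPM in MAVER1. Its groups did not overlap, although the difference in JVM2 was small beside those of the other lines, and its log2 fold change was -0.67 ± 0.17 (edgeR, Benjamini-Hochberg adjusted p = 0.0173). UTP4, NOC4L, IMP4, WDR43, RRP12 and UTP20, most of them parts of the small subunit processome or its partners, fell by between 0.32 and 0.67. NOP14, which pairs with NOC4L and shares 17.1% of its exon bases with the antisense gene NOP14-AS1, was not called, at -0.30 ± 0.10 with an edgeR adjusted p of 0.0535 by Benjamini-Hochberg.

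In large subunit assembly, 8 of the 11 genes tested fell. MRTO4, which holds a place on the nascent subunit for the ribosomal stalk, was at 169 and 94.1 CPM in JEKO1, 122 and 92.6 CPM in JVM2 and 203 and 86.2 CPM in MAVER1, in control and with both drugs. Each value with both drugs lay below every control, with a log2 fold change of -0.83 ± 0.14 (edgeR, Benjamini-Hochberg adjusted p = 0.00405). NOP16, EBNA1BP2 and NIP7 fell by 0.78, 0.68 and 0.64. On the other strand NIP7 shares 20.2% of its exon bases with COG8, EBNA1BP2 18.8% with CFAP57 and NOP16 a smaller share with ARL10, so that their reads could be split or mixed if strand was not used. PES1 and WDR12, which form the PeBoW complex with BOP1, fell by 0.54 and 0.58, RRS1 by 0.55 and NOP2, a ribosomal RNA methyltransferase, by 0.49. GNL3 (nucleostemin), WDR74 and PPAN were not called, with log2 fold changes of -0.19, -0.42 and -0.05. PPAN had only 99 to 226 reads per library and shares 56.0% of its exon bases with an annotated readthrough gene, so its values are uncertain.

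Of the nucleolar chaperones and other nucleolar proteins, 6 of 7 fell. NPM3, a relative of nucleophosmin, was at 111 and 49.8 CPM in JEKO1, 60.5 and 48.4 CPM in JVM2 and 132 and 52.3 CPM in MAVER1, in control and with both drugs. The 3 lines differed in control and were close to each other with both drugs, the groups did not overlap, and the log2 fold change was -0.94 ± 0.16 (edgeR, Benjamini-Hochberg adjusted p = 0.00432). The most abundant members of this list, NCL (nucleolin) and NPM1 (nucleophosmin), fell by 0.42 and 0.54. NPM1 has 49 named pseudogenes in the table, which held at most 2.29% of the reads of gene and pseudogenes together. The helicase DDX21 fell by 0.55, LYAR by 0.49 and the scaffold NOLC1 by 0.43. MYBBP1A, a MYB-binding nucleolar protein, was not called, with 192 and 149 CPM in JEKO1, 204 and 209 CPM in JVM2 and 199 and 113 CPM in MAVER1.

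Both genes of polyamine synthesis fell. ODC1, ornithine decarboxylase, which commits ornithine to polyamines, was at 944 and 492 CPM in JEKO1, 631 and 385 CPM in JVM2 and 917 and 415 CPM in MAVER1, in control and with both drugs. The values with both drugs lay below every control, and the log2 fold change of -0.93 ± 0.11 had the lowest adjusted p of the 47 genes (edgeR, Benjamini-Hochberg adjusted p = 0.00191). With ironomycin alone ODC1 was at 702, 488 and 550 CPM, and with ibrutinib alone at 853, 501 and 764 CPM, in JEKO1, JVM2 and MAVER1. Within each line the order was the same for the control, which was highest, and for both drugs, which were lowest. SRM, spermidine synthase, fell by 0.33.

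**Figure D2:**
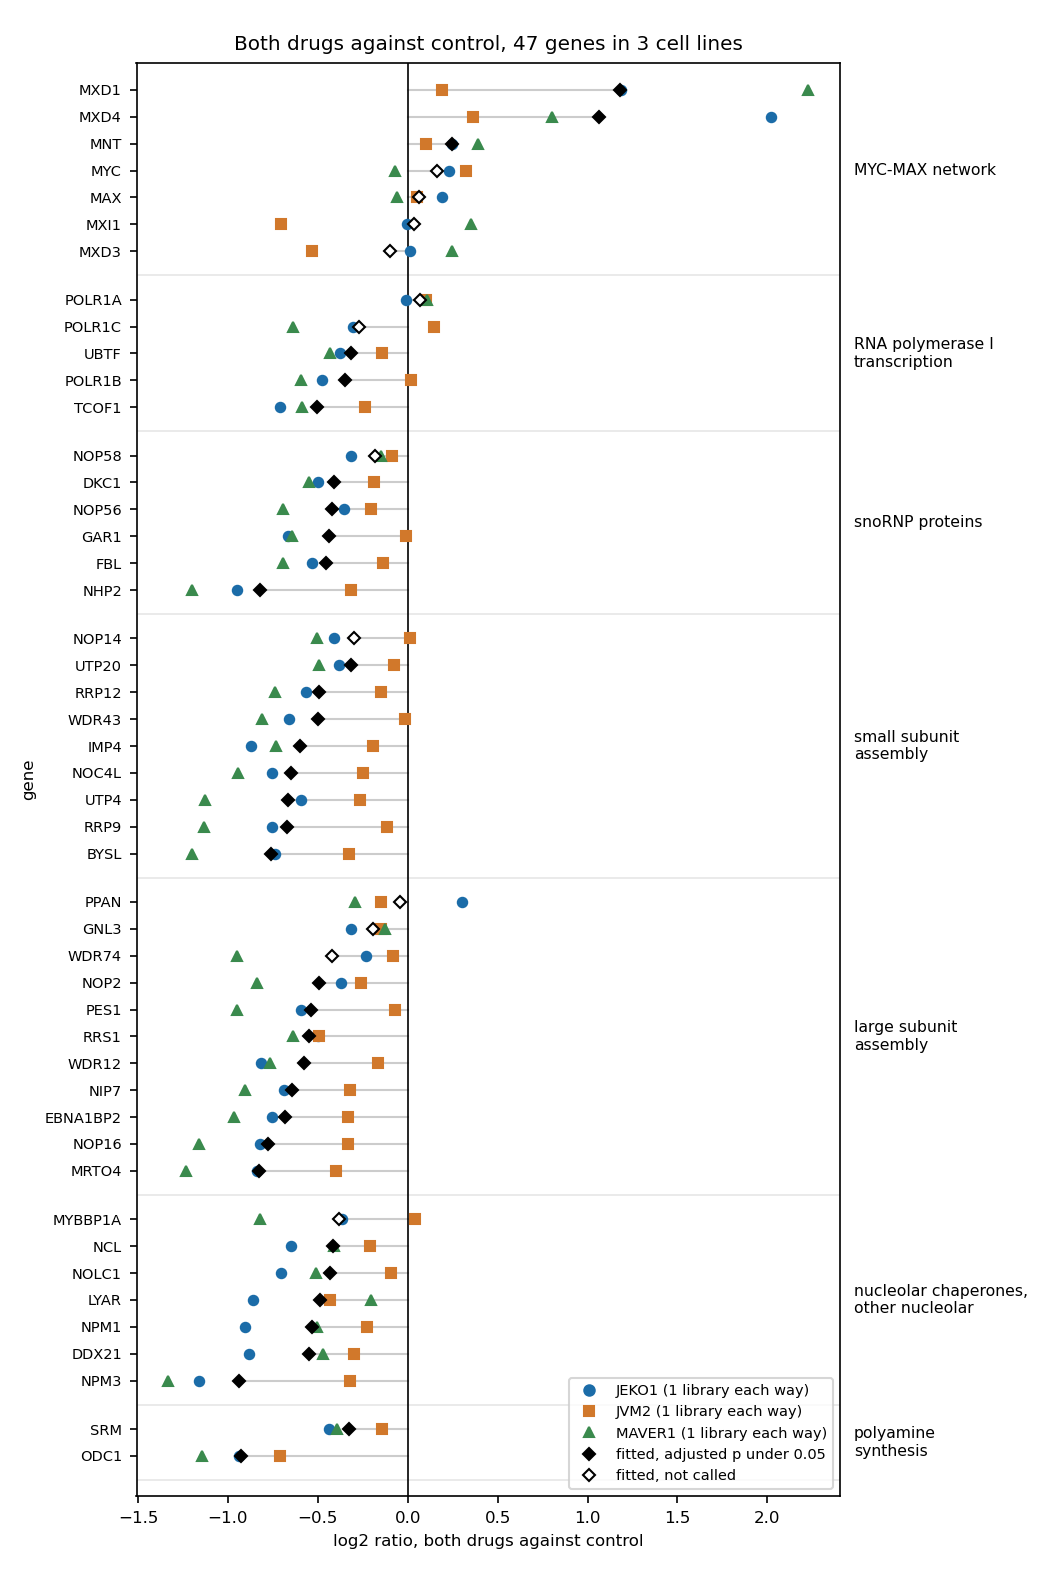
Log2 ratio of both drugs against control (horizontal axis) for the 47 genes tested (vertical axis, by role), with circles for JEKO1, squares for JVM2 and triangles for MAVER1, each from 1 library per treatment, and diamonds for the value fitted over the lines, filled where it was called. Outside the MYC-MAX network nearly all points lie left of 0, and the JVM2 squares lie nearest to 0 for 37 of the 40 genes.

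With ironomycin alone most of these genes had lower values, without a call over the 3 lines. None of the 47 genes was called against control by edgeR, where 0.584% of all genes tested were called. An unadjusted p under 0.05 was found for 29 of the 47. The share of all genes at that unadjusted threshold is not given here, so such counts, here and below, are a description only. DESeq2 called 20, of which 18 were lower, where it called 15.7% of all genes to which it gave an adjusted p, 9.32% lower. Outside the MYC-MAX network, 39 of 40 genes had a negative log2 fold change, with a median of -0.31 against 0.03 for all genes tested, and 36 were lower in all 3 lines. The lowest value was that of MRTO4, at -0.61 ± 0.14 (edgeR, Benjamini-Hochberg adjusted p = 0.0683). MXD1 had a log2 fold change of 0.94 ± 0.30 (edgeR, Benjamini-Hochberg adjusted p = 0.113). Without JVM2, 17 of the 47 genes were called, 16 of them lower, where 9.1% of all genes were called, 5.02% lower. Without JEKO1 or MAVER1 none of the 47 was called (0.0168% and 0.0053% of all genes called).

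With ibrutinib alone, edgeR called none of the 47 genes and 0% of all genes tested. DESeq2 also called none of the 47, where it called 0.184% of all genes to which it gave an adjusted p. In edgeR 1 of the 47 had an unadjusted p under 0.05. The median log2 fold change of the 40 genes outside the network was -0.03. Directions differed by line, with 37 of 40 genes lower in MAVER1, 28 lower in JEKO1 and 34 higher in JVM2, at median log2 ratios of -0.13, -0.07 and 0.08. A fit with separate effects per line set the 2 libraries of a line with ibrutinib, both drugs included, against the 2 without. Its values are thus not those of ibrutinib alone. In that fit, NPM3 and DDX21 fell with ibrutinib in JEKO1 by 0.32 and 0.41. There 5.7% of all genes were called, 3.36% lower and 2.34% higher. DDX21 in JEKO1 was at 496 CPM in control and 410 CPM with ibrutinib alone, and at 392 CPM with ironomycin and 269 CPM with both drugs. NPM3 fell by 0.50 in MAVER1 (0.53% of all genes called). None of the 47 was called in JVM2, where 0.155% of all genes were called, 0.123% lower and 0.0321% higher, and 5 had an unadjusted p under 0.05 in edgeR. The difference of the ibrutinib effect between the lines was not called for any of the 47 genes (0.948% of all genes called), with 9 at an unadjusted p under 0.05 and 1 called by DESeq2 (2.59% of all genes called).

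Against ibrutinib alone, 34 of the 47 genes were called with both drugs (23.3% of all genes called), with MXD1, MXD4 and MNT higher and 31 genes lower. Of all genes, 11.8% were called higher and 11.5% lower. This comparison uses the same 3 libraries with both drugs as the comparison with control. The largest log2 fold changes were 1.31 for MXD1 and 1.08 for MXD4 among the rises, and among the falls -0.82 for MRTO4, -0.75 for NOP16, -0.73 for BYSL, -0.72 for NHP2, -0.68 for ODC1 and -0.67 for NIP7. Without JEKO1 or without MAVER1 none was called (0.00559% and 0.0318% of all genes called), and with only the 6 libraries compared 4 were (1.89% of all genes called).

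Against ironomycin alone, edgeR called none of the 47 genes with both drugs (0% of all genes called), with 9 at an unadjusted p under 0.05, and DESeq2 called 1 (1.33% of all genes called). The values were lower for 37 of the 40 genes outside the network, with a median log2 fold change of -0.18, and the lowest was that of ODC1, at -0.42 ± 0.11 (edgeR, Benjamini-Hochberg adjusted p = 0.431). The difference between the combined change and the 2 single changes added up was not called for any of the 47 genes by edgeR (0% of all genes called, 0 of the 47 at an unadjusted p under 0.05) or DESeq2. Its value was negative for 38 of the 40 genes outside the network, with a median of -0.16 on the log2 scale. The plot of list medians shows these values by line.

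**Figure D3:**
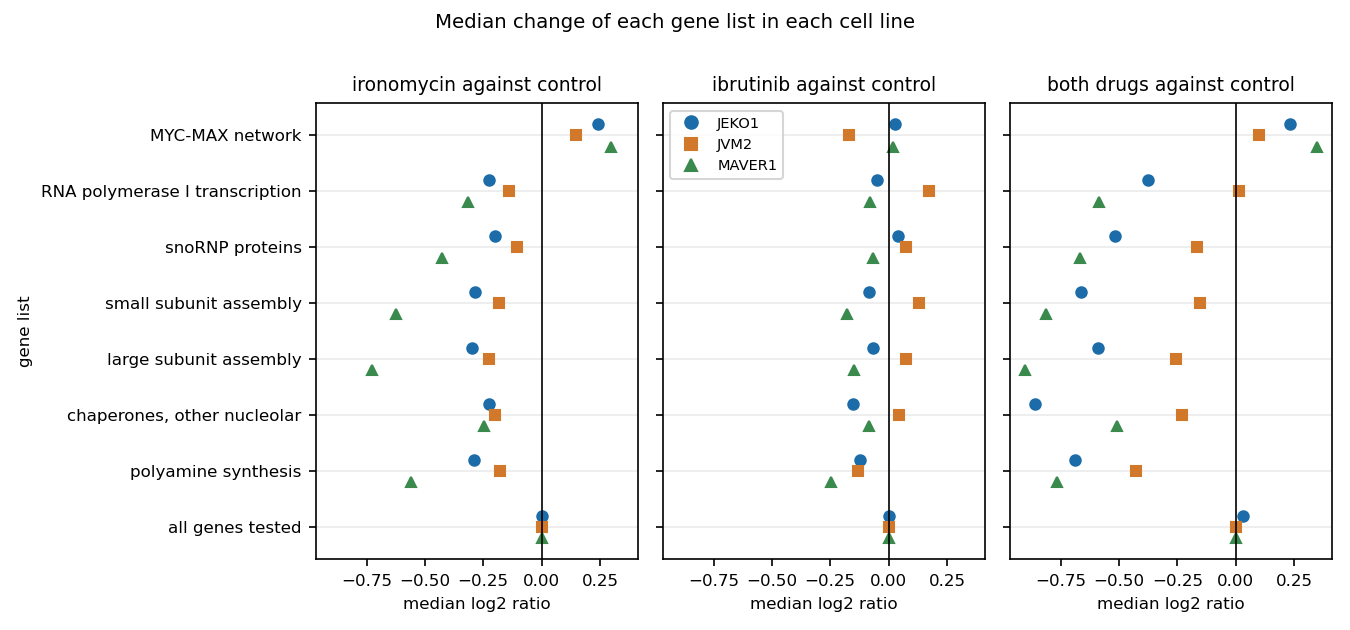
Median log2 ratio against control (horizontal axes) of the 7 gene lists and of all 18674 genes tested (vertical axis) for ironomycin, ibrutinib and both drugs, with circles for JEKO1, squares for JVM2 and triangles for MAVER1. With both drugs the nucleolar lists lie left of 0 in JEKO1 and MAVER1, JVM2 lies nearer to 0 or just past it for RNA polymerase I transcription, and the medians of all genes lie near 0.

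The response to ironomycin was then compared between lines, with a fit in which each line had its own ironomycin and ibrutinib effect. It set the 2 libraries of a line with ironomycin against the 2 without and pooled the spread over the lines with 3 residual degrees of freedom, so that an effect of the combination beyond the sum counts as spread. In JEKO1, 35 of the 47 genes were called (37.4% of all genes called), 3 higher and 32 lower, where 19.2% of all genes were called higher and 18.2% lower. In MAVER1, 39 were called (35.9% of all genes called), 5 higher and 34 lower, where 18.5% of all genes were called higher and 17.3% lower. In JVM2, 6 were called (5.07% of all genes called), all lower, where 2.14% of all genes were called lower and 2.93% higher. They were RRS1, MRTO4, NIP7, NOP2, MXD3 and UBTF, at log2 fold changes of -0.48, -0.45, -0.40, -0.39, -0.38 and -0.30. The edgeR adjusted p-values of UBTF and NIP7, by Benjamini-Hochberg, were 0.0498 and 0.0499. The JVM2 count was 0 with no filter on low counts (0.933% of all genes called) and 0 with 1 ibrutinib term shared by the lines (2.27%). It was 10 with DESeq2 (6.47% of all genes called). Scaled by library totals instead, the split was 7 higher and 21 lower in JEKO1, where 38.2% of all genes were called, 10.9% lower. In JVM2 it was 1 higher and 3 lower, where 5.41% of all genes were called, 1.41% lower. Called in the same direction in JEKO1 and MAVER1 were 31 genes, and 5 of these (MRTO4, NIP7, NOP2, RRS1 and UBTF) also in JVM2, a count that rests on the JVM2 calls and their settings. The same overlap over all genes tested was not counted, so these overlaps are a description only. GNL3, MAX, MYC, NOP58 and POLR1A were called in no line.

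The antagonists MXD4 and MXD1 rose in JEKO1 by 1.71 and 1.14 and in MAVER1 by 0.51 and 1.90 on the log2 scale. In JEKO1 the largest falls were those of NPM3, IMP4, NHP2, MRTO4, ODC1 and BYSL, at log2 fold changes of -0.85, -0.81, -0.71, -0.65, -0.61 and -0.55. In MAVER1 they were those of MRTO4, NOP16, RRP9, BYSL, NHP2, UTP4 and NPM3, at -1.06, -0.99, -0.96, -0.95, -0.89, -0.86 and -0.83. MXI1 rose in MAVER1 by 0.42, and MNT rose in JEKO1 and MAVER1 by 0.25 and 0.33.

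The ironomycin effect differed between the lines for 15 of the 47 genes (13.3% of all genes called), by a test of 2 coefficients together. JVM2 had the smallest change in size for 12 of the 15, the exceptions being MXD3, UTP4 and MYBBP1A, and MAVER1 had the largest for 11. MXD4 differed most clearly (edgeR, Benjamini-Hochberg adjusted p = 0.00264), at 72.3 and 104 CPM in the JEKO1 libraries with ironomycin against 25.6 and 27.6 CPM without it, where JVM2 had 53.3 and 54.1 CPM against 42.2 and 39.5 CPM. WDR74, a large subunit assembly factor, was at 67.6 and 58.2 CPM with ironomycin against 113 and 96.2 CPM without it in MAVER1, and its log2 fold change there was -0.73, beside -0.13 in JEKO1 and -0.11 in JVM2. MYBBP1A was also largest in size in MAVER1, at -0.62, beside -0.08 in JEKO1 and -0.12 in JVM2. MXD3 was called in opposite directions, falling in JEKO1 by 0.27 and in JVM2 by 0.38 and rising in MAVER1 by 0.28. MXD3 shares 22.5% of its exon bases with PRELID1 on the other strand, whose reads may be mixed with its own if strand was not used. On its own strand it shares 18.0% with RAB24, which had a median of 394 reads against 807 for MXD3. Reads from that stretch cannot be separated by strand. The number that differed was 7 with no filter on low counts (3.46% of all genes called) and 6 with the shared ibrutinib term (7.97% of all genes called). It was 2 without JVM2, 3 without MAVER1 and 26 without JEKO1 (2.44%, 5.44% and 17.8% of all genes called).

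**Figure D4:**
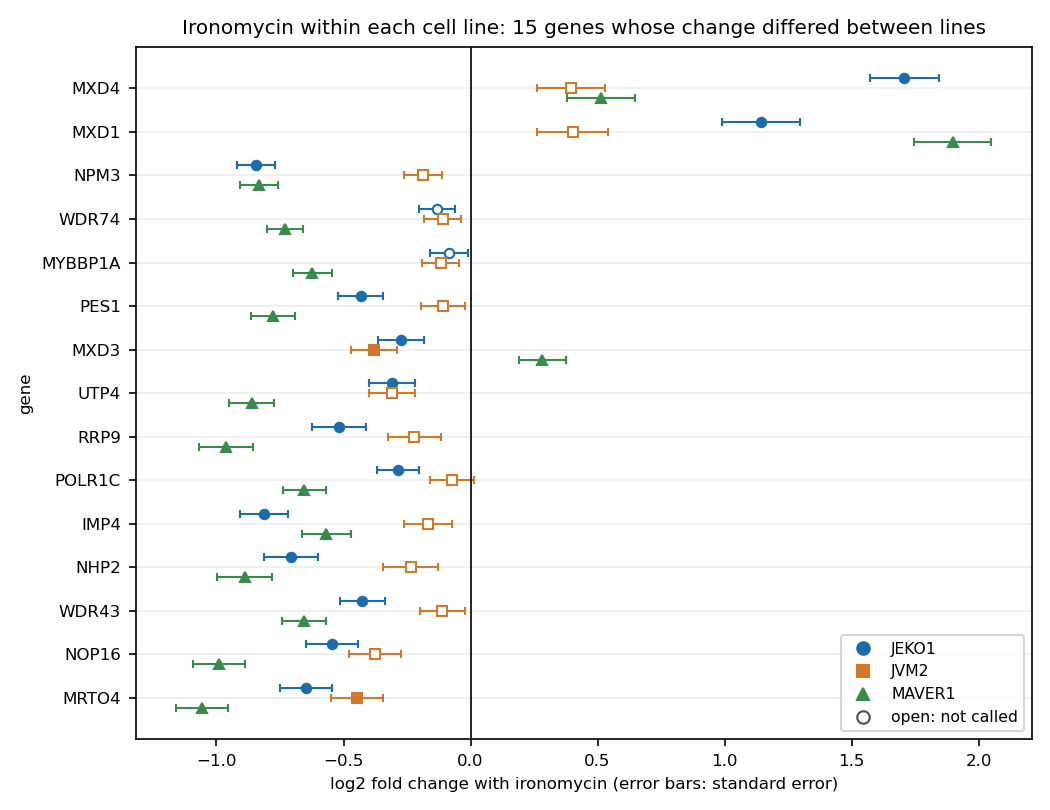
Fitted log2 fold change with ironomycin in each line (horizontal axis, error bars for the standard error) for the 15 genes whose ironomycin effect differed between lines (vertical axis), with circles for JEKO1, squares for JVM2 and triangles for MAVER1, filled where the gene was called in that line. MXD4 and MXD1 lie right of 0 in every line, MXD3 lies right of 0 only in MAVER1, and the other 12 genes lie left of 0.

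The lines also differed in the level of these genes whatever the treatment, from 4 libraries per line with treatment as a term. MYC was at 787 to 924 CPM in JEKO1, 583 to 621 CPM in MAVER1 and 238 to 298 CPM in JVM2, and the 3 ranges did not overlap. Its log2 difference was -1.63 ± 0.09 in JVM2 against JEKO1, -0.48 ± 0.09 in MAVER1 against JEKO1 and 1.15 ± 0.09 in MAVER1 against JVM2, and each was called. Most genes of the table differed between lines, and of the 47 genes 33 were called in JVM2 against JEKO1 (78.3% of all genes called, 39.8% lower and 38.6% higher), with 10 higher and 23 lower. In MAVER1 against JEKO1, 22 were called (66.4% of all genes called, 34.7% lower and 31.8% higher), with 13 higher and 9 lower. In MAVER1 against JVM2, 29 were called (71.2% of all genes called, 36.5% lower and 34.7% higher), with 25 higher and 4 lower. With library totals in place of TMM the splits were 5 higher and 31 lower, 6 higher and 17 lower, and 27 higher and 3 lower. Of all genes, 79.7%, 68% and 71.3% were then called, and 47.1%, 43% and 35.2% were called lower. The median of all genes moved from -0.03 to -0.25 in the first comparison and from -0.03 to -0.21 in the second. In MAVER1 against JEKO1 the larger number of calls was thus higher with TMM and lower with library totals.

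Some genes stood apart by line. DKC1 was at 520 to 761 CPM in MAVER1, 137 to 200 CPM in JEKO1 and 174 to 209 CPM in JVM2, a log2 difference of 1.90 ± 0.08 in MAVER1 against JEKO1. RRS1, PES1 and FBL were also higher in MAVER1 than in JEKO1, by 1.80, 1.47 and 1.22 on the log2 scale. BYSL, GAR1 and WDR74 were lowest in JVM2, with log2 differences from JEKO1 of -1.22, -1.10 and -1.02. MXI1 was lower in JVM2 than in JEKO1 by 5.08 on the log2 scale. NCL did not pass the threshold in any of the 3 comparisons of lines, with 1193 to 1883 CPM in JEKO1, 1464 to 1836 CPM in JVM2 and 1432 to 1917 CPM in MAVER1.

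The other genes of these pathways were described by count from 6 lists with 143 genes, of which 140 were tested. With both drugs against control 87 were called, 5 higher and 82 lower, where 28.2% of all genes tested were called, 14.2% higher and 14% lower. The median log2 fold change of the 140 genes was -0.36, against 0.05 for all genes tested. Among the other snoRNP and small subunit genes 29 of 45 fell and none rose, and among the other large subunit genes 25 of 45 fell and 1 rose. Of 11 other RNA polymerase I genes 5 fell and 1 rose, and of 8 other polyamine genes 5 fell and 1 rose. Of 7 other network genes 2 rose and 1 fell. Of 24 genes taken as MYC targets outside the nucleolus, 17 fell and none rose, with a median of -0.62.

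The 3 largest falls among them were those of LDHA and ENO1, enzymes of glycolysis, and PHB1, a mitochondrial scaffold protein. LDHA was at 1542 and 436 CPM in JEKO1, 1481 and 967 CPM in JVM2 and 1756 and 615 CPM in MAVER1, in control and with both drugs, a log2 fold change of -1.31 ± 0.22. ENO1 and PHB1 had log2 fold changes of -1.01 ± 0.22 and -0.91 ± 0.18. The 3 largest rises were those of SMOX, which oxidizes spermine, at 0.91 ± 0.22, NOP53, a large subunit assembly factor, at 0.69 ± 0.19, and MLXIP, which pairs with MLX in the wider MYC network, at 0.57 ± 0.12. NOP53 was at 624 and 826 CPM in JEKO1, 447 and 587 CPM in JVM2 and 332 and 773 CPM in MAVER1, so that within each line it was higher with both drugs, opposite to the other large subunit genes called.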

How the data were processed

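RNA-seq was performed on poly(A) RNA of 12 libraries. The deposited values are raw read counts for Ensembl genes, which the authors did not normalize. The submitters' processing notes name STAR, DESeq2 and GRCh37 without versions, and the counting tool and its strand setting are not given in the sources used here. Promoters are from RefSeq on GRCh38.p14, and no coordinates were converted. All 12 columns of counts were used. Gene identifiers were paired with symbols for 39699 of 63677 genes. The 48 genes and all lists were chosen with earlier results of these data known.

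All 12 libraries entered a quasi-likelihood model in edgeR 4.0.16 (R 4.3.3) whose terms were treatment and cell line, after TMM scaling and filterByExpr by treatment. P-values were adjusted by Benjamini-Hochberg over 18674 genes, and an adjusted p under 0.05 was a call, whatever the fold. A second fit gave each line its own ironomycin and ibrutinib effects. Replicate numbers stand for the lines, so the line served as the block. Log2 CPM values centred on each treatment's mean had correlations of 0.926 to 0.976 for the 18 pairs of libraries of the same line. CPM values were computed from the counts with TMM-scaled library sizes, and log2 ratios of single lines with a prior count of 2. Within a line the libraries are not known to be separate cultures, and p-values measure only the spread between these libraries.

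Values were given for the 7 network genes, for the 8 called genes with the largest change in each comparison, for the largest rise and fall of each role list with both drugs, for up to 8 genes by lowest adjusted p in a test between lines, and for the 3 largest rises and 3 largest falls of the other pathway lists. Other genes of the 48 were named after their values were seen. AATF and DDX52 had no identifier in the table. Alternatives were DESeq2 1.42.0, other scalings, no filter, no line term, a fold minimum, fewer libraries and leaving out each line. The tests were tested on simulated data. Python 3.11.15, pandas 2.3.3 and matplotlib 3.10.9 were used for tables and plots.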

Additional observations from a re-analysis of the deposited data

Results flagged for a closer look

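The effect of ironomycin differed between the 3 cell lines for 15 of the 47 genes, by edgeR's test of the difference itself. In the MYC-MAX network the Benjamini-Hochberg adjusted p-values were 0.00264 for MXD4, 0.0034 for MXD1 and 0.0141 for MXD3. Among the nucleolar proteins they were 0.00406 for NPM3 and 0.0121 for MYBBP1A. Among the large subunit genes they were 0.00421 for WDR74, 0.0141 for PES1, 0.0364 for NOP16 and 0.0398 for MRTO4. Among the small subunit genes they were 0.0208 for UTP4, 0.0209 for RRP9, 0.0246 for IMP4 and 0.0357 for WDR43, and they were 0.0239 for POLR1C and 0.035 for NHP2. Dose and line varied together, and their parts cannot be told apart.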

How the results depend on the processing

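In the comparisons of treatments over all lines, no called log2 fold change of a single gene changed sign under any alternative run. Sign changes of single genes within a line or between lines were not counted. Of the values of single genes under an alternative in these comparisons over all lines, 2278 kept their side of the threshold, 339 lost a call and 62 gained 1. Only both drugs against control and both drugs against ibrutinib had calls of these genes to lose. The values that kept their side include those of the other comparisons, where no call could be lost. They are therefore not a measure of how many calls held. For both drugs against control the count of calls was 35. The fit with no replicate block, that is with no cell line term, gave 0 (0% of all genes called). The fit with only the 6 libraries compared also gave 0 (0.031% of all genes called). A fold minimum of 1 on the log2 scale left 2, and leaving out each line gave 0 to 39. Against ibrutinib the values were 0 with no line term (0% of all genes called), 4 with 6 libraries (1.89%) and 2 with the fold minimum. Leaving out each line gave 0 to 35 (0.00559% to 28.9% of all genes called). Leaving out the JEKO1 library with both drugs, chosen after seeing the data, gave 18 against control (11.9% of all genes called) and 9 against ibrutinib (6.44%). For ironomycin against control, no filter on low counts gave 3 (1.4% of all genes called) and DESeq2 20 (15.7%). Leaving out each line gave 0 to 17 (0.0053% to 9.1%). DESeq2 called 1 gene for both drugs against ironomycin and 1 for the ibrutinib effect by line. With the fold minimum, 2 genes were called in JEKO1, 0 in JVM2 and 2 in MAVER1 for ironomycin. Between lines 6, 4 and 4 were called (JVM2 against JEKO1, MAVER1 against JEKO1, MAVER1 against JVM2). The shares of all genes called with the fold minimum are not given here, so the counts with it are a description only. Ironomycin in JVM2 gave 0 with no filter, 10 with DESeq2 and 0 with 1 ibrutinib term shared by the lines. The ironomycin effect by line gave 7 with no filter, 6 with the shared term and 2 to 26 without each line. The cause of these changes was not tested, except that leaving out libraries leaves fewer to estimate the spread. Library totals in place of TMM moved the median of all genes with both drugs against control from 0.05 to 0.18. With 1 library per line and treatment, a low count of calls in JVM2 does not show that its genes did not respond.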

Other observations

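Over all tested genes with a promoter window, 18.7% of the 1467 genes with a CACGTG match and 17.0% of the 10628 without one were called lower with both drugs against control. Outside the MYC-MAX network the same counts for the genes described here were 16 of 19 and 12 of 16.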
